A study of Mus musculus with 10 samples.

Results

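The tachykinin genes measured here were Tac1 and Tac2, which encode peptide precursors, and Tacr1 and Tacr3, which encode receptors. They were taken as every probe set whose platform annotation names exactly 1 gene and that gene is one of these 4, which gave 7 probe sets of the 45101 on the array: 2 for Tac1, 1 for Tac2, 1 for Tacr1 and 3 for Tacr3. The set was chosen because Tac1 differed between the genotypes in these same arrays. All differences of the members between genotypes below are therefore descriptions, with standard errors and intervals but without a test.

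The samples were 10 mice of the strain background DBA1/lacJ, all injected in the peritoneum with 120 µg/kg of lipopolysaccharide (LPS, a bacterial cell wall component that causes fever). Brains were taken after 5 h, the preoptic region of the hypothalamus was cut out by laser capture, and each mouse gave 1 array. Of the mice, 5 are labelled WT and 5 are labelled mPGES-1 KO, that is, knocked out for microsomal prostaglandin E synthase-1. This enzyme, encoded by Ptges, is induced by inflammation and makes the fever mediator prostaglandin E2. The labels do not give the age of the mice, the deleted part of the gene or how the knockout was made, and no mice without LPS were analysed here.

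Tachykinins are short neuropeptides that share a C-terminal sequence and are cut from larger precursors. Tac1 gives substance P and neurokinin A, and Tac2 gives neurokinin B. Substance P prefers the receptor NK1 (Tacr1) and neurokinin B the receptor NK3 (Tacr3), both coupled through Gq proteins to phospholipase C. In the brain, Tac1 is abundant in direct-pathway neurons of the striatum, which lies beside the preoptic region, and also occurs in hypothalamic neurons. Neurokinin B is best known from hypothalamic neurons that control reproduction and, through NK3 receptors in the preoptic region, influence heat loss.

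The arrays had been scaled to a common trimmed mean of 200.002, but their medians differed. The median intensity was 32.0 to 44.8 on the arrays labelled WT and 24.6 to 29.8 on those labelled KO, without overlap, so dim probe sets tended to read lower on the arrays labelled KO. Over all genes tested the median log2 difference was -0.01 as deposited and 0.27 after median centring, so differences no larger than this shift can change sign with the scaling. The poly-A spike-in RNAs, a labelling control, were seen on 7 of the 10 arrays. They were missing from KO replicate 3 and from WT replicates 2 and 5. The Ptges probe set 1439747_at read 1.51 to 9.33 on the arrays labelled WT and 17.5 to 76.1 on those labelled KO. The other 2 Ptges probe sets overlapped between the groups, at log2 differences of 0.95 (SE 0.37) and 0.27 (SE 0.35), and all 3 were dim. None was lower in the group labelled KO, the labels do not say whether they lie in the deleted part, and every direction here rests on the labels. Of 13 preoptic markers 11 were named on the array and 9 lay above the filter on dim genes, with galanin (Gal) at 1158 to 1982, while Hmx2 and Nkx2-1 were below it. Of 4 cortical markers on the array, Slc17a7, Neurod6 and Tbr1 were below the filter, and Cux2 lay above it at 252 to 494. Tbr1, though dim, read 15.8 to 31.5 in the group labelled WT and 31.7 to 48.6 in the group labelled KO. Such a separation was seen in 3.22% of all probe sets, counting either direction. Neurod6 read 81.9 on KO replicate 3 and at most 28.8 on the others. Transthyretin (Ttr), a choroid plexus gene, read 6161 on KO replicate 3 and 75.5 to 446 on the others.

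Tac1 was higher on every array labelled KO than on any array labelled WT. Probe set 1416783_at, annotated from a RefSeq transcript, read 629, 497, 619, 532 and 449 on WT replicates 1 to 5. On KO replicates 1 to 5 it read 1714, 1770, 2035, 765 and 1463. The groups did not overlap, and KO replicate 4 lay far below the other 4 arrays of its group and nearest to the WT range.

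The mean intensity of this Tac1 probe set was 1549 ± 483 (SD, n = 5) on the arrays labelled KO and 545 ± 77.9 (SD, n = 5) on those labelled WT. On the scale of log2(intensity + 16), which understates the change of dim probe sets, the difference was 1.42 (SE 0.21, 95% interval 0.97 to 1.87), or 2.67-fold. The spread was also larger among the arrays labelled KO, with a log2 SD of 0.55 against 0.20. Ranked within its own array, which no scaling changes, Tac1 lay at percentiles 91.1 to 96.1 of all probe sets in the group labelled KO and 87.4 to 90.1 in the group labelled WT.

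Tac1 was among the 8 of 10916 genes (0.0733%) past a limma adjusted p of 0.05, and that call was the reason for choosing these genes, so nothing is read from it. The call was lost in 11 of 22 other settings, 5 of them other ways of processing and 6 the loss of 1 array (WT replicate 1, 2 or 4 or KO replicate 2, 3 or 5). Of the 7 tachykinin probe sets this was the 1 in which the groups did not overlap, beside 3.22% of all probe sets. Leaving out 1 array at a time gave Tac1 differences from 1.30 (without KO replicate 3) to 1.65 (without KO replicate 4). Among only the 7 arrays where spike-ins were seen, it was 1.18.

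The other Tac1 probe set, 1431883_at, annotated from a separate cDNA clone, did not show this difference. It read 18.8, 67.4, 1.41, 11.7 and 23.0 on WT replicates 1 to 5. The KO replicates, in order, read 21.4, 13.3, 10.1, 12.0 and 21.0. The values labelled KO all lay within the range of those labelled WT, and the log2 difference was -0.18 (SE 0.35, 95% interval -0.91 to 0.55), turning to 0.02 with quantile normalization and 0.10 with median centring.

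This probe set was dim, at percentile 38.7 of mean signal over all probe sets, against 92.4 for 1416783_at. As a gauge of signal without target, the spike-in probe sets on the 3 arrays that showed no spike-in had a median of 2.70, a 90th percentile of 18.6 and a maximum of 47.5. With group means removed, both Tac1 probe sets had a Pearson r of -0.158 over the 10 arrays, given as a description. The Tac1 result therefore rests on 1 of 2 probe sets, and averaging both gave a Tac1 difference of 0.62.

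**Figure D1:**
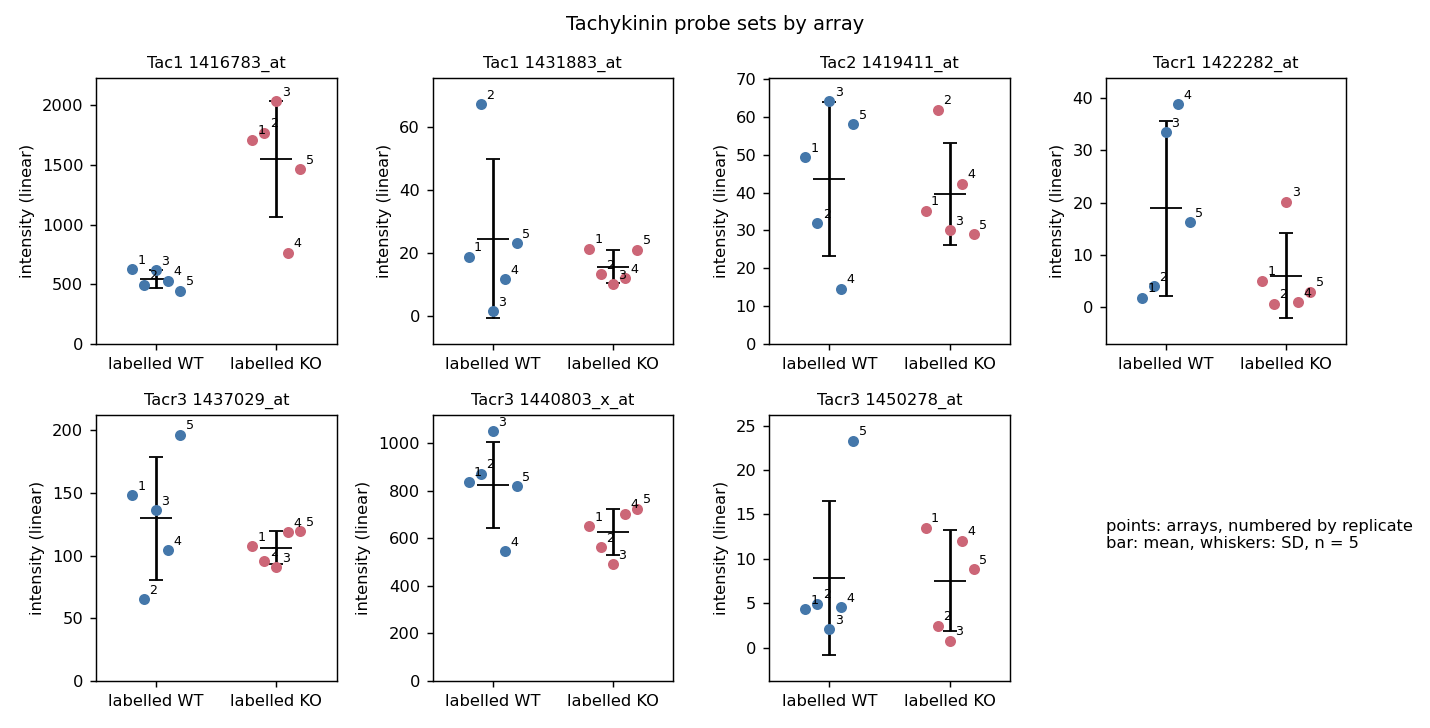
Deposited intensity (linear scale) of the 7 tachykinin probe sets on each array, labelled WT in blue and labelled KO in red, numbered by replicate, with the mean and SD of 5 arrays as bar and whiskers. Tac1 1416783_at reads 449 to 629 in the group labelled WT and 765 to 2035 in the group labelled KO, and the groups overlap in the other 6 panels.

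Tac2, the neurokinin B precursor, was dim and did not separate the groups. Probe set 1419411_at read 49.2, 31.9, 64.1, 14.6 and 58.1 on WT replicates 1 to 5. In KO replicates 1 to 5 the readings were 35.2, 61.8, 30.1, 42.3 and 28.9. All arrays labelled KO lay inside the WT range, which was set by WT replicates 3 and 4.

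The mean Tac2 intensity was 39.7 ± 13.5 (SD, n = 5) in the group labelled KO and 43.6 ± 20.2 (SD, n = 5) in the group labelled WT. The log2 difference was -0.05 (SE 0.31, 95% interval -0.70 to 0.61), an interval that leaves room for a change of either sign. It was 0.20 with quantile normalization and 0.23 with median centring, so its sign depended on the scaling. With group means of 5.82 and 5.77 on the log2 scale, Tac2 fell just below the filter at 5.83 and was not among the genes tested.

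Tacr1, the substance P receptor, was at the level of signal without target on most arrays. Probe set 1422282_at read 1.81, 3.98, 33.5, 38.9 and 16.3 on WT replicates 1 to 5. On KO replicates 1 to 5 it read 5.06, 0.626, 20.2, 0.942 and 2.96. Of the arrays labelled KO, 2 lay below all WT values and 1, KO replicate 3, lay above the WT median.

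The log2 difference of Tacr1 was -0.59 (SE 0.33, 95% interval -1.27 to 0.10). Its size depended on the constant added before the logarithm, from -0.23 with 64 to -1.54 with 1. The probe set lay at percentile 23.2 of mean signal. Whether Tacr1 differed between the genotypes was not detectable at this signal.

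Tacr3, the neurokinin B receptor, had 3 probe sets that differed widely in signal. The brightest, 1440803_x_at, carries the suffix given to probe sets that can bind other transcripts. It read 837, 871, 1050, 544 and 819 on WT replicates 1 to 5. The corresponding KO readings were 650, 562, 491, 702 and 723. All 5 arrays labelled KO lay below the WT median, but WT replicate 4 lay among them.

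For this Tacr3 probe set the mean intensity was 626 ± 97.6 (SD, n = 5) in the group labelled KO and 824 ± 181 (SD, n = 5) in the group labelled WT. The log2 difference was -0.37 (SE 0.18, 95% interval -0.75 to 0.00), and it was -0.45 with quantile normalization and -0.09 with median centring. Its sign was the same under each setting tried, and its size was not.

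Probe set 1437029_at, which stood for Tacr3 in the fit across genes, read 148, 65.2, 136, 104 and 196 on WT replicates 1 to 5. On KO replicates 1 to 5 it read 107, 95.4, 90.7, 119 and 119. The arrays labelled KO lay within a narrow band inside the wide WT range. The log2 difference was -0.19 (SE 0.25, 95% interval -0.71 to 0.33), turning to 0.09 with median centring.

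The third Tacr3 probe set, 1450278_at, annotated from the RefSeq transcript, was at the level of signal without target. It read 4.36, 4.93, 2.11, 4.59 and 23.3 on WT replicates 1 to 5 and 13.5, 2.48, 0.794, 12.0 and 8.86 on KO replicates 1 to 5. Its log2 difference was 0.01 (SE 0.25, 95% interval -0.51 to 0.52). With group means removed, the 3 pairs of Tacr3 probe sets had a Pearson r of 0.258 to 0.571 over 10 arrays, so they shared only part of their variation between mice.

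**Figure D2:**
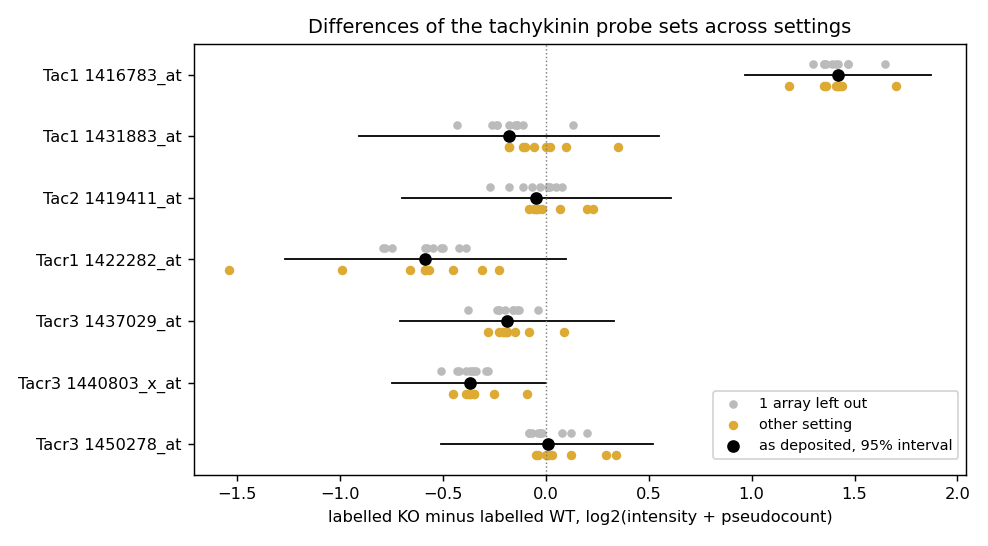
Difference between arrays labelled KO and labelled WT for each tachykinin probe set, on the scale of log2(intensity + pseudocount). Black points are the deposited scaling with 95% intervals, grey points leave out 1 array each and yellow points are other planned settings. Tac1 1416783_at stays between 1.18 and 1.70, while 1431883_at of the same gene, Tac2 and 2 of the 3 Tacr3 probe sets have points on both sides of 0.

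The remaining tachykinin genes on the array, the precursor gene Tac4 and the NK2 receptor gene Tacr2, were also dim. Tac4 read 2.14 to 51.2 in the group labelled WT and 5.41 to 20.3 in the group labelled KO. Tacr2 read 12.2 to 52.9 and 3.13 to 31.2, with a log2 difference of -0.64 (SE 0.32), and 3 of 5 arrays labelled KO lay below all WT values. Neither passed the filter on dim genes.

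Genes that process, degrade or transmit tachykinins were examined as lists. Of 28 tested members 0 passed limma's adjusted threshold in either direction, where 0.0183% of all tested genes were called higher and 0.055% lower in the group labelled KO. At an unadjusted limma p below 0.05, 2 members were higher and 3 lower, or 5 of 28, beside 17.2% of all genes tested. The median log2 difference over the lists was -0.11, against -0.01 over all genes tested, and 0.17 against 0.27 with median centring.

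Precursor processing enzymes showed small differences. Carboxypeptidase E (Cpe), which trims basic residues from cut peptides, was at 0.26 (SE 0.18, limma adjusted p = 0.475). Peptidylglycine monooxygenase (Pam), which amidates the C-terminus that tachykinin receptors need, was at -0.09 (SE 0.15, limma adjusted p = 0.800). The convertase Furin was at -0.43 (SE 0.21, limma adjusted p = 0.273). Of 6 tested members 2 were higher and 4 lower, with a median of -0.10.

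The peptide-degrading enzymes held the largest differences of the pathway, in opposite directions. Neprilysin (Mme), a membrane peptidase that cleaves substance P, read 33.7, 91.3, 35.2, 34.4 and 35.2 on WT replicates 1 to 5 and 134, 116, 143, 62.2 and 103 on KO replicates 1 to 5. On 4 of 5 arrays labelled KO it lay above all WT values, and WT replicate 2 stood apart from its group. Mme was dim, at percentile 49.3 of mean signal over all genes. WT replicates 1, 3, 4 and 5 read below 47.5, the maximum of the gauge of signal without target. The log2 difference was 1.07 (SE 0.28, limma adjusted p = 0.0727), not past the adjusted threshold as deposited. Mme passed with median centring, where 1053 of 10916 genes passed, 1027 of them higher, so that call does not set it apart. Of 2 Mme probe sets 1 went the other way.

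Angiotensin-converting enzyme (Ace), which can also cleave substance P, read 53.1, 70.1, 73.9, 88.4 and 83.7 on WT replicates 1 to 5. On KO replicates 1 to 5 it read 51.8, 32.8, 23.6, 15.7 and 23.7. Every array labelled KO lay below every array labelled WT, as in 2.75% of all genes tested. The log2 difference was -1.02 (SE 0.26, limma adjusted p = 0.0705), with both Ace probe sets in this direction. It did not pass the adjusted threshold with median centring either. Ace was dim, at percentile 42.3 of mean signal over all genes. KO replicates 2 to 5 read below 47.5, the maximum of the gauge of signal without target. The other 4 tested degrading enzymes lay between -0.24 (Thop1) and 0.00 (Ece2).

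Receptor signalling genes, the Gq subunits, phospholipase C, protein kinase C, receptor kinases and arrestins, had 7 of 16 tested members higher and 9 lower, with a median of -0.07. The Gq gene Gnaq was at 0.16 (SE 0.17) and its relative Gna11 at -0.20 (SE 0.16). Rgs4, a regulator that speeds the switching off of Gq, was at 0.33 (SE 0.14, limma adjusted p = 0.245), and 1 of its 3 probe sets went the other way. Gnas, which encodes the Gs subunit that the tachykinin receptors can also engage, was at -0.27 (SE 0.12, limma adjusted p = 0.199).

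Genes known from neurokinin B neurons, their peptides and the receptors that regulate them, showed no call among 4 tested members, 3 of them higher and 1 lower. The estrogen receptor gene Esr1 read 303 to 485 in the group labelled WT and 371 to 583 in the group labelled KO, at 0.34 (SE 0.18, limma adjusted p = 0.336). The kappa opioid receptor gene Oprk1 was at 0.62 (SE 0.35, limma adjusted p = 0.371). For Esr1 1 of 3 probe sets and for Oprk1 1 of 2 went the other way. The progesterone receptor gene Pgr was at 0.21 (SE 0.15, limma adjusted p = 0.49). The kisspeptin receptor gene Kiss1r was at -0.27 (SE 0.22), and prodynorphin (Pdyn), too dim to test, was at -0.04 (SE 0.29).

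**Figure D3:**
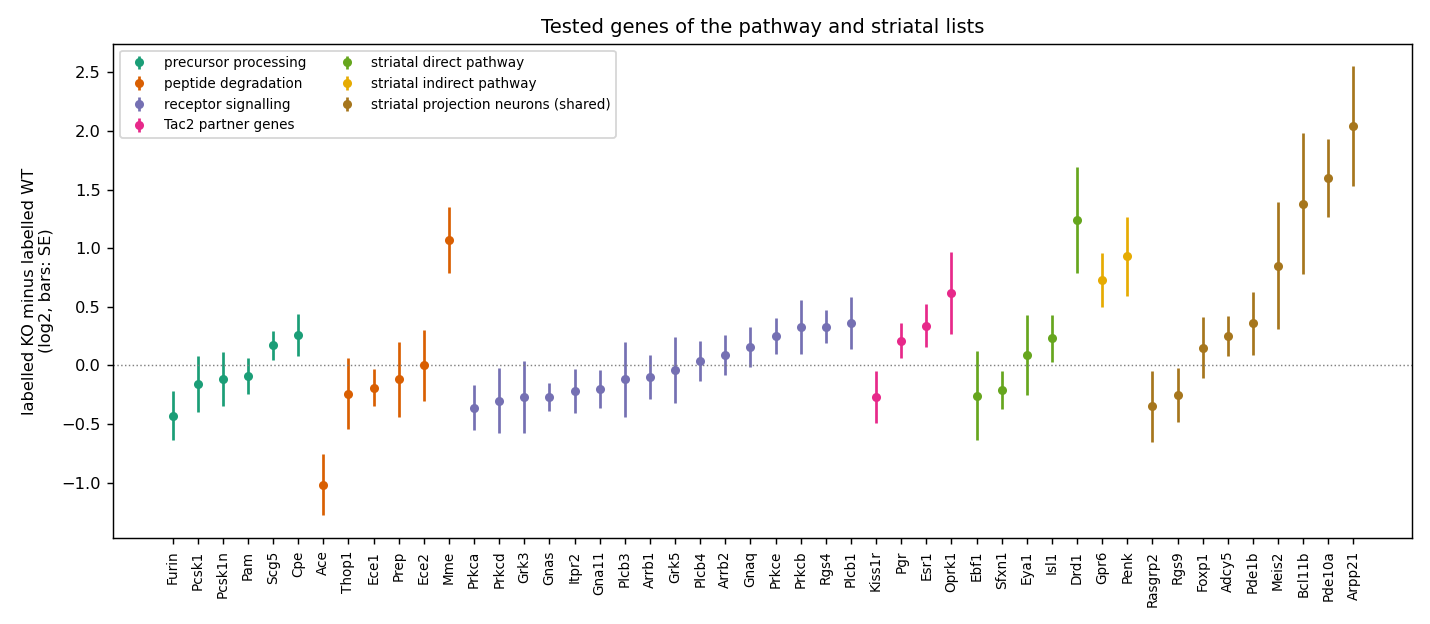
Difference between arrays labelled KO and labelled WT (log2, bars are SE, n = 5 per group) for the tested genes of 7 lists, with colours marking the lists. Mme at 1.07 and Ace at -1.02 stand at the ends of the pathway lists, and Arpp21 at 2.04 and Pde10a at 1.60 lie above all genes shown.

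Tac1, by its bright probe set, and most tested markers of striatal projection neurons were higher in the group labelled KO. Within the groups, the Pearson r of Tac1 with the mean level of these markers was 0.814, but 0.559 without KO replicate 4. For the dim Tac1 probe set, 1431883_at, r was 0.099. Of 23 striatal markers, Tac1 not among them, 19 were named on the array and 16 lay above the filter on dim genes. Of these 16, 12 were higher and 4 lower in the group labelled KO, with a median of 0.30 against -0.01 over all genes tested, and 0 passed limma's adjusted threshold. At an unadjusted limma p below 0.05, 6 were higher and 0 lower, beside 8.29% and 8.96% of all genes tested. Their summed intensity was 5512 to 6325 on the arrays labelled WT and 5129 to 11562 on those labelled KO. The marker lists were chosen with earlier results of these data known, so these counts are descriptions. In tissue RNA such as this, more cells of a type and more RNA per cell cannot be told apart.

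The sums were high on KO replicates 1, 2 and 3, at 10912, 8809 and 11562, and not on KO replicates 4 and 5, at 5129 and 6366. Tac1 on KO replicates 4 and 5 was 765 and 1463, above all WT values, and the striatal sums of these arrays were below and barely above the WT range. Bright markers weigh most in this sum, with Sfxn1 at 1823 to 3100 in the group labelled WT and 1754 to 2256 in the group labelled KO. On KO replicate 5 the markers Pde10a, Arpp21 and Gpr6, at 506, 480 and 888, lay above all WT values. Drd1, Bcl11b and Penk lay inside the WT range there. Arpp21, a phosphoprotein of striatal neurons, read 79.1 to 293 in the group labelled WT and 1126, 1067, 1764, 149 and 480 on KO replicates 1 to 5. Its log2 difference was 2.04 (SE 0.51, limma adjusted p = 0.0727), and 2 of its 5 probe sets differed the other way. Pde10a, a phosphodiesterase gene of the same neurons, had a limma adjusted p of 0.0555 at a difference of 1.60 (SE 0.33). Its groups overlapped, with KO replicate 4 at 277 and WT replicate 3 at 306, and 1 of its 5 probe sets differed the other way.

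The striatal neurons that contain substance P are marked by Drd1, the gene of a dopamine receptor, which read 21.4 to 91.0 in the group labelled WT and 278, 207, 251, 46.4 and 45.8 on KO replicates 1 to 5. Its arrays labelled KO thus fell apart in the same way as the striatal sum. The enkephalin precursor gene Penk, a marker of the other striatal pathway, was at 0.93 (SE 0.34). The 4 tested striatal markers that were lower were Rasgrp2 at -0.35 (SE 0.30), Ebf1 at -0.26 (SE 0.38), Rgs9 at -0.25 (SE 0.23) and Sfxn1 at -0.21 (SE 0.16). Of the defining markers, Chrm4 was near 0, reading at most 4.79. Ppp1r1b (DARPP-32) and Drd2 were below the filter on dim genes. Ppp1r1b read 2.33 to 14.0 in the group labelled WT and 11.9, 27.6, 29.0, 2.84 and 2.62 on KO replicates 1 to 5. Drd2 read at most 37.7. All readings of both genes lay below 47.5, the maximum of the gauge of signal without target, so no pattern is read from them.

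Within the groups, Tac1 and the mean log2 value of the 16 striatal markers had a Pearson r of 0.814 and a Spearman rho of 0.770 over 10 arrays with group means removed. The exact permutation test within groups (14400 arrangements, two-sided, 1 relation) gave p = 0.016 for r and p = 0.020 for rho. Tac1 and the marker lists were chosen with earlier results of these data known, so the p-values of this relation are given as descriptions and nothing is read from them. For the other, dim Tac1 probe set, 1431883_at, r was 0.099 (exact permutation p = 0.65). Without KO replicates 4 and 5, the arrays whose score lay farthest from the median once group means were removed, r was 0.642. The relation rests in good part on KO replicate 4: without it r was 0.559 (exact permutation p = 0.15). Without KO replicate 3 or 5 the exact permutation p was 0.061 and 0.080 at r of 0.766 and 0.878.

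With the striatal score as a covariate, a setting chosen after seeing the data, the Tac1 difference was 0.93 (SE 0.21) in place of 1.42. The part of striatal tissue in the Tac1 difference was not tested. Of the 16 striatal markers, 5 (Pde10a, Adcy5, Bcl11b, Pde1b and Arpp21) had an r with Tac1 above 0.732, the 99th percentile over all genes tested. Without KO replicate 4 there were 0 above the corresponding 0.738, with a median r of 0.377.

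**Figure D4:**
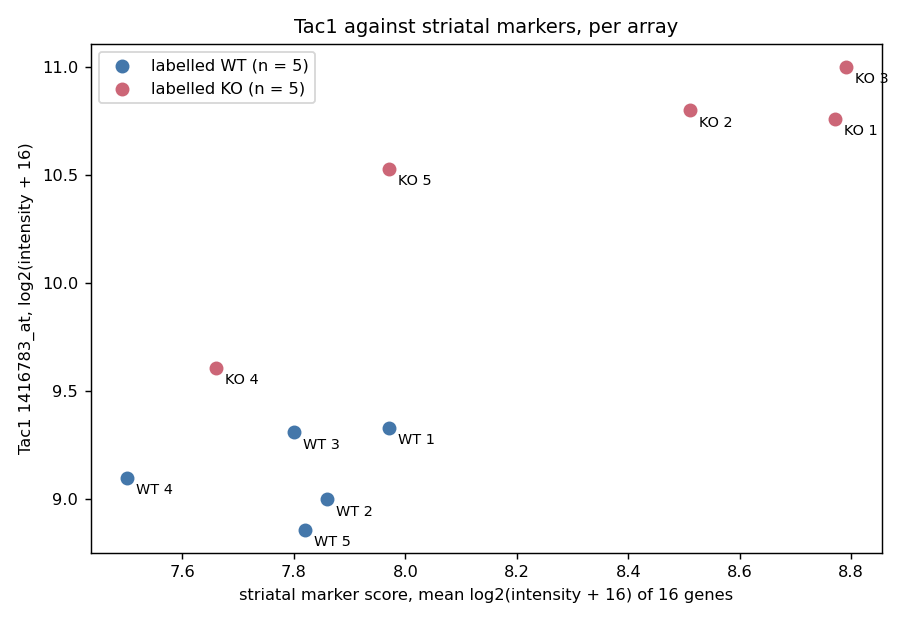
Tac1 1416783_at against the mean of 16 striatal marker genes on each array, both as log2(intensity + 16), labelled WT in blue and labelled KO in red. KO replicates 1, 2 and 3 are high on both axes, while KO replicates 4 and 5 lie within or near the WT range of the striatal score and above the WT arrays on the Tac1 axis.

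The genes whose variation between mice was most like that of Tac1 were Camkv, Sh3glb2, Alas1, Lzts1 and Lrrc47, with r from 0.895 to 0.943 over 10 arrays with group means removed, picked from 10915 genes. Camkv, which encodes a kinase-like protein of neurons that binds calmodulin, stayed at 0.916 without KO replicate 4, while Lrrc47 dropped to 0.454. The genotype difference of Camkv was 0.74, and that of Sh3glb2 was -0.03, so likeness within groups did not go with one direction between them.

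For Tacr3 (1437029_at) the most similar genes were Egfl8, Smim7, Vsir, Slc66a2 and Wipi1, with r from 0.924 to 0.953. Without WT replicate 2, where Tacr3 was lowest, they were at 0.781 to 0.929. Tac2 and Tacr1 lay below the filter and were not searched. These likenesses share the arrays' technical variation as well as the mice, and are given as descriptions.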

How the data were processed

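RNA of 10 mice was amplified in 2 rounds and biotinylated, per the labels' protocols. The authors deposited 1 linear intensity for each probe set and array, computed with GCOS, per the submitters' processing notes. For GCOS, neither version nor settings are given in the sources used here, and detection calls were not used here. Probe sets were named from the platform annotation, which can be old, with symbols checked by Entrez ID against RefSeq (GRCm38.p6). Of 45101 probe sets, 34945 named 1 gene. No build is named for the table, so no coordinates are given.

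Values were analysed as log2(intensity + 16) with limma (lmFit, eBayes with an intensity trend), genotype as the only term. Members were fitted over all probe sets without controls. Genes were represented by their brightest probe set (names ending in _x_at only if there was no other), and the dimmest 40% (mean log2 value below 5.83) were left out, which left 10916. Calls used a Benjamini-Hochberg adjusted p below 0.05. The named genes were all member probe sets, genes of each list with the smallest p or past the threshold, the striatal genes, the 5 genes most like each tested member, and Ptges; other genes of the lists named with values, and single probe sets, were chosen after their values were seen. The members and lists were chosen with earlier results of these data known. Same-numbered arrays of both groups did not deviate together (correlations of deviations -0.127 to 0.067), so the numbers were not taken as pairs. Replicates are separate mice by their labels. The fit was tested on simulated data. Analyses used R 4.3.3, limma 3.58.1, data.table (version 1.17.8), Python 3.11.15, pandas 2.3.3, numpy 2.4.6 and matplotlib 3.10.9.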

Additional observations from a re-analysis of the deposited data

Results flagged for a closer look

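In each group of 5 arrays, the highest and lowest values of each tachykinin probe set were compared with the rest of the group by Dixon's ratio, on the deposited intensities. Chance marks about 1 in 20 groups if the values are normally distributed, and whether these intensities are was not tested. For Tacr1 1422282_at in the group labelled KO, replicate 3 read 20.2 and the next array 5.06, a gap of 0.773 of the group's range, above Dixon's 95% critical value for 5 values. For Tacr3 1450278_at in the group labelled WT, replicate 5 read 23.3 and the next array 4.93, a gap of 0.867 of the range. Both probe sets were dim.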

How the results depend on the processing

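Each tachykinin probe set kept its difference within the spread between mice (1 SD) under the planned settings, except Tacr1, at -1.54 with a pseudocount of 1; the striatal score as a covariate, added later, moved Tac1 1416783_at to 0.93. Leaving out 1 array at a time gave 1.30 to 1.65 and -0.43 to 0.13 for the Tac1 probe sets, -0.27 to 0.08 for Tac2, -0.79 to -0.39 for Tacr1, and -0.38 to -0.04, -0.51 to -0.28 and -0.08 to 0.20 for Tacr3. The 8 genes past the limma threshold became 24 with a pseudocount of 64, 0 with quantile normalization (1635 at unadjusted p below 0.05), 1053 with median centring (1027 higher, 26 lower, against 2 higher and 6 lower), 112 with array weights, 0 without a trend (1883 unadjusted), 16 with a spike-in block, 0 within the arrays with spike-in signal (1500 unadjusted), 3 when dim genes were kept, 65 with the dimmest 60% left out and 1 with the mean of probe sets. With the replicate number as a block 2 genes passed, 1 of them a striatal marker, Pde10a, and Tac1 was not among them, though the tachykinin differences had the same size. Tac1 also lost its call with quantile normalization, without a trend, within the arrays with spike-ins and with the mean of probe sets. Leaving out 1 array gave 0 to 39 genes. There were 39 without WT replicate 3, 31 without KO replicate 1, 29 without WT replicate 5, 5 without KO replicate 4 and 0 without any of the other 6 arrays (1545 to 1906 at unadjusted p below 0.05). The causes were not tested. With median centring 4 pathway genes passed (Cpe, Mme, Rgs4 and Scg5, all higher), 5 striatal markers and 1 partner gene of Tac2, Esr1. Pde10a, 1 striatal marker, passed with array weights and with the dimmest 60% left out. Leaving out 1 array gave 0 to 2 striatal markers (Pde10a without WT replicate 3, Pde10a and Arpp21 without KO replicate 4) and 0 pathway and 0 partner genes. The r of Tac1 with the striatal score was 0.559 to 0.878 with 1 array left out and 0.099 for Tac1 1431883_at. Signal near that of probe sets without target limits Tacr1, Tac1 1431883_at and Tacr3 1450278_at. Tac2 was also dim, just below the filter on dim genes, and 5 arrays a group limit all of them.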
